A study of Anas platyrhynchos with 11 samples.

Results

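Heterotrimeric G proteins carry signals from receptors of the cell surface to enzymes and channels inside the cell, and RGS genes (regulators of G protein signalling) encode proteins that end those signals. All genes of the count table whose names mark them as G protein alpha (GNA), beta (GNB) or gamma (GNG) subunits, or as numbered RGS genes, were taken, by a rule that reads the name and no measured value. They were 41 of 16823 genes, namely 11 alpha, 4 beta and 8 gamma subunit genes and 18 RGS genes. Their RNA was compared between Meissner corpuscles and bill skin of the duck (Anas platyrhynchos), with no treatment and no genetic change given in the labels. The corpuscles, organs of touch with lamellar cells around the ending of a sensory axon, were drawn by hand into pipettes that took 2 to 10 of them each, and 5 such libraries were sequenced. The 6 skin libraries were made from cells taken near the corpuscles, at places without any. The sources used here give no strain, age or sex. Corpuscle RNA was at 63 to 323 pg per µl, with an RNA integrity number of 6.1 to 8.0. No such values were found for skin, and the part of RNA amount and quality in the results was not tested. Library kits differed by tissue, with a low-input kit for corpuscles and an mRNA kit for skin, and in every comparison below the effects of tissue and kit cannot be told apart. The study drew on 3 skin isolations that the labels do not tie to libraries, and each p-value therefore reflects the spread among libraries alone, which may be technical.

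A G protein at rest is a complex of an alpha subunit that holds GDP and a paired beta and gamma subunit. An activated receptor makes alpha exchange GDP for GTP, after which alpha and the beta-gamma pair each act on their own targets: Gs alphas stimulate adenylyl cyclase, Gi/o alphas inhibit it, Gq/11 alphas activate phospholipase C beta, G12/13 alphas act on the cytoskeleton, and beta-gamma pairs from Gi/o open inward rectifier potassium channels. RGS proteins speed up the hydrolysis of GTP by alpha, most of them on Gi/o or Gq alphas, and so shorten the signal. In sensory cells this cycle sets the strength and the duration of responses to transmitters and peptides.

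Total counts ran from 5766279 (corpuscle 4) to 11886808 in corpuscles and from 13263776 to 20925841 in skin. The 41 genes took 0.288% to 0.432% of the counts in corpuscle libraries and 0.23% to 0.256% in skin libraries, and these ranges did not overlap. Levels are given as CPM, counts per 1000000 of the TMM-scaled library size, and, where genes are compared with each other, as the authors' deposited FPKM, which are per kilobase. Markers of Merkel cells, which are touch cells of the skin, summed to 14330 to 79117 CPM in corpuscles, lowest in corpuscle 4, and to 949 to 2064 CPM in skin, and 7 of 7 tested were higher in corpuscles. For axons of sensory neurons 5 of 8 markers were higher and 1 lower. Schwann cell markers summed to 852 to 1247 CPM in corpuscles against 1713 to 3051 CPM in skin, 4 of 6 tested were lower in corpuscles, and S100B was at 0 in both tissues. Markers of endothelium (11 of 12 lower), pericytes and smooth muscle (8 of 10), fibroblasts (7 of 10) and keratinocytes (5 of 8) fell in corpuscles. In bulk RNA, fewer cells of a type and less RNA per cell cannot be told apart. Of 31 tested genes that belong to unrelated organs 24 were also higher in corpuscles. The 95th percentile over the 39 such genes in the table, 6.16 FPKM in corpuscles and 6.01 FPKM in skin, is used below as a background level. Of all genes called higher, 54.5% lay at or under it in corpuscles.

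Of the 41 genes, 38 had enough counts to be tested, and GNG4, RGS20 and RGS21 did not. By edgeR's quasi-likelihood test with Benjamini-Hochberg adjustment over all 14638 genes tested, at a threshold of 0.05, 18 rose in corpuscles and 7 fell. These are 65.8% of the 38, beside 56.4% of all genes tested (33.0% higher and 23.5% lower). Their median log2 fold change, corpuscle minus skin, was 0.69, and that of all genes tested was 0.18. In 14 of the 38 every corpuscle library lay above every skin library, and in 8 below, beside 22.3% and 19.0% of all genes. By family, 3 of 11 alpha genes rose and 4 fell, 2 of 4 beta genes rose, 7 of 7 tested gamma genes rose, and of 16 tested RGS genes 6 rose and 3 fell. Corpuscles 4 and 5 and skin 5 and 6 stood apart from the other libraries in earlier results of these data. Within those 4 libraries 34.3% of all genes were called, and of the 41 members tested there 11 were higher and 2 lower. Of the 25 calls made over all libraries, 11 were kept. The 11 were GNAO1, GNAT2, GNB3, GNG10, GNG13, RGS3, RGS6, RGS7 and RGS8, which were higher, and GNAI3 and GNA12, which were lower. In corpuscles 19 of the 41 lay above the background level, among them 12 of the 18 that rose.

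Among the inhibitory Gi/o alphas, GNAI2 rose and GNAI3, a near relative that inhibits the same cyclases, fell. GNAI2 stood at 650, 505, 311, 129 and 696 CPM in corpuscles 1 to 5, and at 96.2 to 118 CPM in skin, with a median of 105. Every corpuscle library was above every skin library, but corpuscle 4 by little. Its mean was 458 ± 237 CPM (SD, n = 5) against 106 ± 7.11 CPM (n = 6), a log2 fold change of 2.12 ± 0.32 (SE; adjusted p 5.87e-05). GNAI3 stood at 61, 152, 120, 55 and 64.2 CPM in corpuscles and at 210 to 234 CPM in skin, with a median of 224. No library of either tissue reached the range of the other, and the log2 fold change was -1.30 ± 0.27 (adjusted p 0.000754). Of the alpha genes in the table, GNAI2 was thus the most abundant in corpuscles, at 274 FPKM and rank 266 among all genes. GNAI3 was the most abundant of them in skin, at 98.1 FPKM.

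GNAO1, the Go alpha, which is the main alpha of neurons and neuroendocrine cells, rose as well. It stood at 214, 166, 138, 157 and 230 CPM in corpuscles and at 23.3 to 40.7 CPM in skin, with a median of 34.3. The ranges were far apart and the spread within corpuscles was small. The mean rose from 33.8 ± 6.23 to 181 ± 39.2 CPM, a log2 fold change of 2.42 ± 0.23 (adjusted p 8.72e-07). Per kilobase GNAO1 remained well below GNAI2 in corpuscles, at 17.5 FPKM. GNAZ, a Gi/o alpha that pertussis toxin does not block, was at 6.47 CPM in corpuscles against 4.9 CPM in skin and did not pass the test (log2 0.40 ± 0.44).

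The other Gi/o alphas are the transducins of photoreceptors. GNAT2, the cone transducin, rose from 0.945 ± 0.335 to 5.5 ± 1.96 CPM (log2 2.53 ± 0.41, adjusted p 0.000106), with no overlap between tissues. At 1.35 FPKM in corpuscles it lay under the background level. GNAT1, the rod transducin, was at 3.51 CPM in corpuscles against 6.16 CPM in skin and did not pass the test (log2 -0.82 ± 0.41, adjusted p 0.103). With all libraries it was called lower by limma-voom (log2 -1.01, adjusted p 0.038) and with a correction for gene length (log2 -1.09, adjusted p 0.0359). Without corpuscle 4 it was also called lower (log2 -1.13, adjusted p 0.0204, range over alternatives 0.00134 to 0.928). Photoreceptor markers (5 in the table) summed to 7.51 to 32.7 CPM in corpuscles, highest in corpuscle 4, and to 0.716 to 1.76 CPM in skin. PRPH2 was at 0 in skin. The part of these markers in the GNAT2 result was not tested.

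Of the Gs alphas, which stimulate adenylyl cyclase, GNAS did not pass the test and GNAL fell. GNAS stood at 126, 124, 141, 143 and 120 CPM in corpuscles and at 118 to 138 CPM in skin, with a log2 fold change of 0.05 ± 0.17 (adjusted p 0.83). These ranges overlapped almost fully. GNAL, the Golf alpha of olfactory neurons and striatum, stood at 6.66, 2.35, 6.59, 7.45 and 21 CPM in corpuscles and at 22.3 to 31.6 CPM in skin, with a median of 24. Corpuscle 5 came close to the skin range and the other 4 were far below. GNAL fell by 1.5 on the log2 scale (SE 0.45, adjusted p 0.00993), and without corpuscle 5 the log2 fold change was -2.12. Both of its means, 1.14 FPKM and 3.41 FPKM, lay under the background level.

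The alphas of the Gq/11 and G12/13 classes were lower in corpuscles or did not pass the test. GNA11, the one member of the Gq/11 class in the table, was at 80.3 to 104 CPM in corpuscles against 114 to 149 CPM in skin (log2 -0.55 ± 0.18, adjusted p 0.0184). Its call was lost without skin 1 (adjusted p 0.0502) and with a correction for gene length (adjusted p 0.106, range over alternatives 0.0101 to 1). GNA12, of the G12/13 class, was at 73.3 to 153 CPM in corpuscles against 214 to 253 CPM in skin, and it fell by 1.04 on the log2 scale (SE 0.20, adjusted p 0.000515). GNA13, its partner in that class, was at 27.6 to 105 CPM and 88.3 to 103 CPM (log2 -0.33 ± 0.28, adjusted p 0.345), and corpuscle 4 alone set the lowest value.

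**Figure D1:**
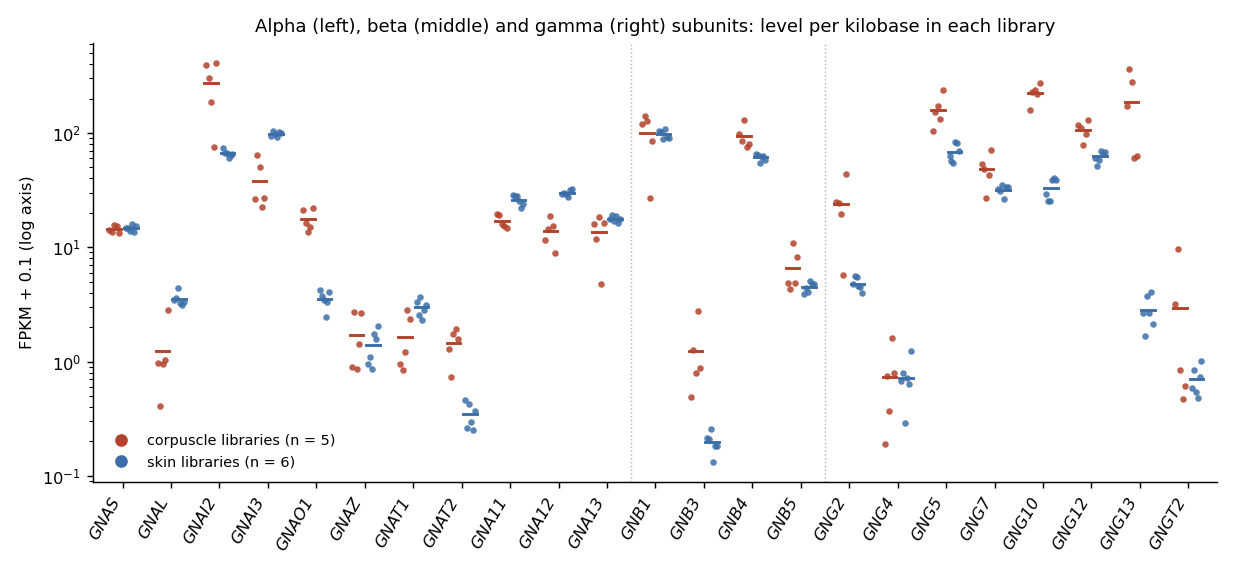
Level of each alpha, beta and gamma subunit gene in every library, as the authors' deposited FPKM plus 0.1 on a log axis, with 1 point per library (5 corpuscle, 6 skin) and a short line at each group's mean. GNAO1, GNG10 and GNG13 lie apart between tissues, and GNAS and GNB1 overlap. GNAI2 does not overlap, but corpuscle 4 (75 FPKM) nearly meets skin 1 (73.8 FPKM).

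The mixture of alpha classes differed accordingly. Each class was expressed as a share of the summed FPKM of the 11 alpha genes in the table, which lack GNAI1 and GNAQ. Gi/o alphas made up 82.4% ± 8.27 of it in corpuscles (69.7% in corpuscle 4, 78.5% to 89.4% in the others) and 65.3% ± 0.98 in skin (63.7% to 66.8%). GNAI2 alone made up 65.3% ± 14.6 in corpuscles and 25.1% ± 1.2 in skin, and GNAI3 10.7% ± 5.16 and 37.2% ± 1.45. The G12/13 share was 7.88% ± 3.44 against 18.0% ± 0.648, again with no overlap. The share of GNA11 ran from 2.79% to 9.01% in corpuscles and from 8.44% to 10.7% in skin, so its groups overlapped. Gs alphas made up 4.74% ± 2.83 in corpuscles and 6.84% ± 0.431 in skin, with overlap. Shares of 1 total move against each other by construction, and the high GNAI2 level in corpuscles 1 and 5 lowers every other share there. GNAI2 is also the shortest of the 11 genes, at 1634 bp in the authors' values, against 8050 bp for GNA12. Fold changes moved with gene length, as described below, and the shares were not corrected for that trend. With a length correction GNAI2 had a log2 fold change of 1.65 and GNA12 of -0.82, and both were still called.

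**Figure D2:**
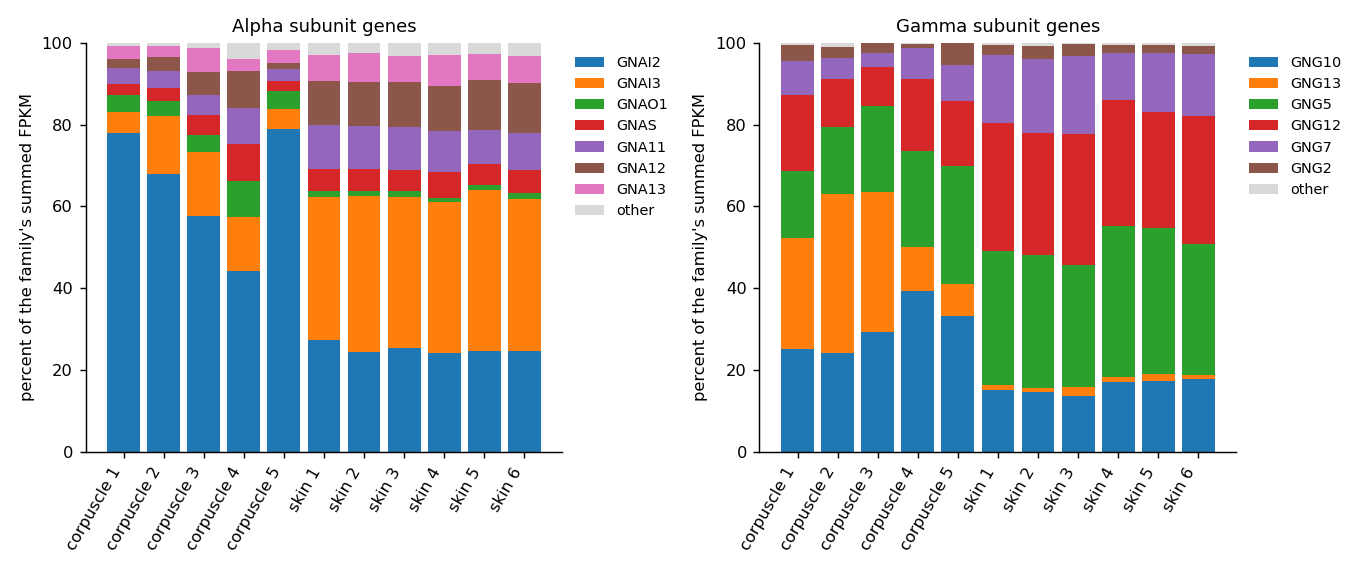
Makeup of the alpha (left) and gamma (right) families in every library, as the percent of the family's summed FPKM that each gene takes, with 1 stacked bar for each of 5 corpuscle and 6 skin libraries and grey for the remaining genes. GNAI2 takes 44.2% to 78.8% in corpuscles and 24.1% to 27.4% in skin, and GNG13 takes 7.72% to 38.7% of the gamma total in corpuscles and at most 1.97% in skin.

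Beta subunits form the stable partner of gamma. The table holds 4 beta genes, and GNB2 is not among them. Of the summed FPKM of these 4, GNB1 and GNB4 held nearly the whole in both tissues. GNB1 stood at 420, 506, 457, 99.4 and 304 CPM in corpuscles and at 304 to 372 CPM in skin, with a median of 331. Corpuscle 4 lay far below the rest, corpuscles 1 to 3 above all skin libraries, and corpuscle 5 at the skin minimum. GNB1 did not pass the test (log2 0.10 ± 0.30, adjusted p 0.796), and the sign changed between alternatives. Without corpuscles 4 and 5 it was called higher (log2 0.46, adjusted p 0.00753, range over alternatives 0.00753 to 1). GNB4 stood at 631, 551, 848, 503 and 523 CPM in corpuscles and at 336 to 408 CPM in skin. It rose by 0.69 ± 0.17 on the log2 scale (adjusted p 0.00326), with no overlap.

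The less abundant betas were GNB3 and GNB5. GNB3, the beta of cones and of ON bipolar cells in the mammalian retina, rose from 0.232 ± 0.101 to 2.92 ± 2.37 CPM (log2 3.56 ± 0.56, adjusted p 7.87e-05). It was highest in corpuscle 4, at 6.98 CPM, as the photoreceptor markers were. Genes of unrelated organs were highest there too, at a summed 330 CPM against 172 to 252 CPM in the other corpuscle libraries. The part of either set in the GNB3 result was not tested, and without corpuscle 4 its log2 fold change was 2.97. At 1.14 FPKM it lay under the background level. GNB5, the atypical beta that binds RGS proteins of the R7 class in place of a gamma, was at 41.2 ± 17.6 CPM in corpuscles against 26.4 ± 2.77 CPM in skin. GNB5 did not pass the test (log2 0.64 ± 0.30, adjusted p 0.078) and passed without corpuscle 2 (adjusted p 0.0338) or without corpuscle 4 (adjusted p 0.0353). With all libraries it passed by DESeq2 (adjusted p 0.0256) and with a length correction (adjusted p 0.0232), but not by limma-voom (adjusted p 0.103). The range over alternatives was 0.0171 to 0.906.

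Gamma subunits anchor the beta-gamma pair to the membrane by a lipid tail. The 7 tested genes rose, with a median log2 fold change of 2.31. GNG13, a divergent gamma known from taste cells and retinal ON bipolar cells of mice, had the highest log2 fold change of them. It stood at 141, 302, 233, 51.4 and 53.3 CPM in corpuscles and at 1.26 to 3.18 CPM in skin, with a median of 2.03. Even the lowest corpuscle libraries, 4 and 5, were far above the highest skin library. GNG13 was 71.9-fold higher in corpuscles (log2 6.17 ± 0.52, adjusted p 4.04e-07), at 187 FPKM, rank 406 among all genes, against rank 9974 in skin at 2.72 FPKM. Within corpuscles 4 and 5 and skin 5 and 6 alone its log2 fold change was 4.5 and was still called (adjusted p 0.0177, the highest over its alternatives, which begin at 4.08e-38).

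GNG10, a gamma expressed in many tissues, was the most abundant gamma of corpuscles per kilobase, at 223 FPKM against 32.8 FPKM in skin. It stood at 190, 277, 292, 276 and 336 CPM in corpuscles and at 29.5 to 46.8 CPM in skin, with a median of 39.2. It was as evenly high in corpuscles 4 and 5 as in the others, unlike GNG13. The log2 fold change was 2.84 ± 0.22 (adjusted p 2.1e-07). GNG2, a common partner of GNB1, stood at 21.7, 21.8, 17.3, 5.07 and 38.9 CPM in corpuscles and at 3.26 to 4.64 CPM in skin, with a median of 3.85. Corpuscle 4 was just above the skin range, and the log2 fold change was 2.40 ± 0.42 (adjusted p 0.000203).

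The remaining gammas changed less. GNG5, the most abundant gamma of skin at 68 FPKM, stood at 59, 87.7, 98.9, 78.5 and 138 CPM in corpuscles and at 30.2 to 45.6 CPM in skin (log2 1.30 ± 0.26, adjusted p 0.000535). GNG12 rose by 0.86 ± 0.19 on the log2 scale, from 110 ± 12.1 to 200 ± 36.1 CPM, without overlap. GNG7, which partners GNAL in the striatum of mice, rose by 0.68 ± 0.22 (adjusted p 0.0148), and corpuscle 3, at 150 CPM, lay inside the skin range. Its call was lost with a replicate block (adjusted p 0.0696), within corpuscles 1 to 3 and skin 1 to 4 (0.0954) and within the other 4 libraries (0.143; range over alternatives 0.00171 to 0.955). GNGT2, the cone gamma, reached 19.9 CPM in corpuscle 2 and 0.793 to 6.39 CPM in the others, against 0.758 to 1.82 CPM in skin. Its log2 fold change of 2.31 ± 0.72 (adjusted p 0.0128) was 1.04 without corpuscle 2 (adjusted p 0.134, range over alternatives 0.00111 to 0.432). At 2.84 FPKM in corpuscles GNGT2 lay under the background level. GNG4 had 29 counts over the 5 corpuscle libraries and 59 over the 6 skin libraries.

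Gene length moved with the fold change, and most gamma genes are short. Lengths of GNG5, GNG13, GNG2 and GNG10 were 564, 814, 863 and 1192 bp in the authors' values, while GNG7 had 5393 bp. Among all genes tested, those of up to 1000 bp had a median log2 fold change of 1.11 and 53.1% were higher, and those over 8000 bp had a median of -0.14 and 29.7% higher. With a length correction, added after seeing the data, GNG13 (log2 5.25), GNG10 (2.18), GNG2 (1.52), GNGT2 (2.01), GNG7 (0.88) and GNG12 (0.47) were still called. The call of GNG5 was lost (log2 0.18, adjusted p 0.579, range over alternatives 9.52e-07 to 0.579). The summed FPKM of the 8 gamma genes was 752 ± 151 in corpuscles and 204 ± 24 in skin. That of the 4 beta genes, which lack GNB2, was 201 ± 61.6 and 163 ± 11.6. The ratio of the gamma sum to the beta sum was 2.83 to 5.11 in corpuscles and 1.02 to 1.44 in skin. These values are per kilobase, but the trend of fold change with length was not corrected for in them.

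**Figure D3:**
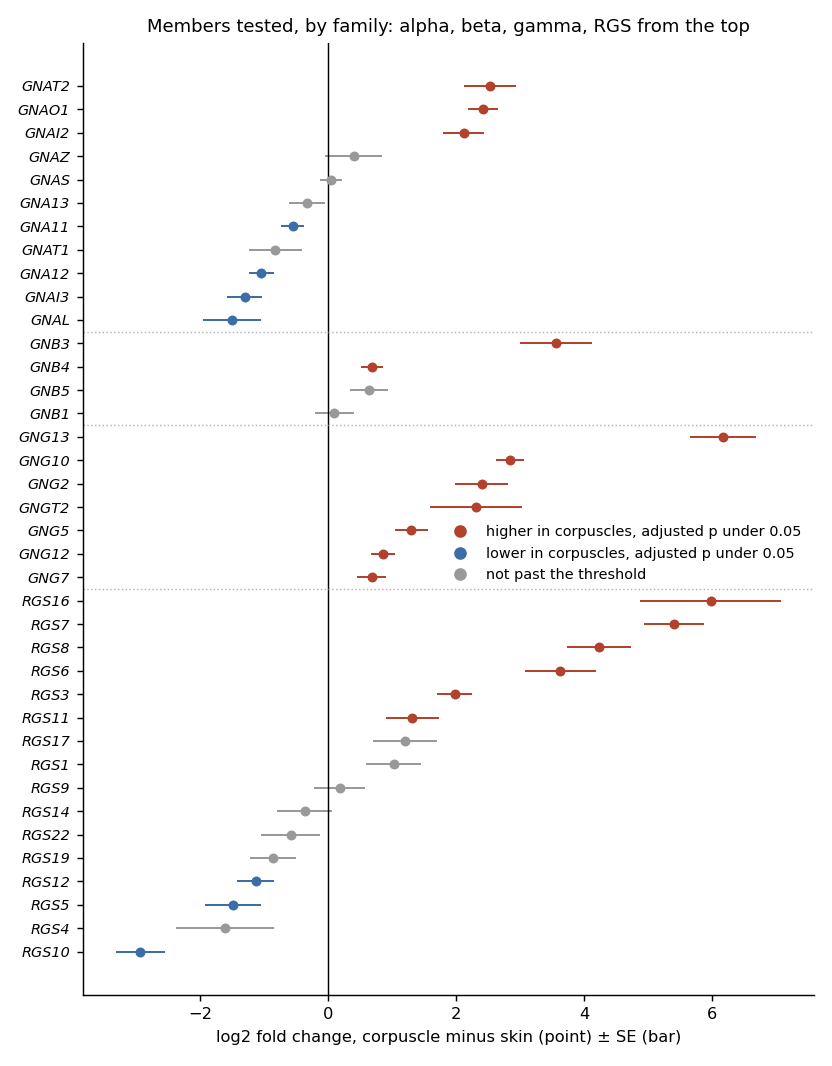
Log2 fold change, corpuscle minus skin, of the 38 tested genes by family, with bars for the SE, red for genes called higher and blue for genes called lower at an adjusted p under 0.05, and grey for the others. The 7 tested gamma genes lie above 0 with their bars, the bar of GNB1 crosses 0, and alpha and RGS genes lie on both sides.

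RGS genes of the R4 class, small proteins that act on Gi/o and Gq alphas, went both ways. RGS16 stood at 144, 772, 251, 12.5 and 3.42 CPM in corpuscles 1 to 5 and at 1.5 to 6.63 CPM in skin, with a median of 3.52. Corpuscles 1 to 3 were far above skin, corpuscle 4 was above it by little, and corpuscle 5 lay inside the skin range. The log2 fold change was 5.98 ± 1.1 (adjusted p 0.00048), and without corpuscle 2 it was 4.77. Among the 4 libraries that stood apart (corpuscles 4 and 5, skin 5 and 6) the log2 fold change was 2.05 and was not called (adjusted p 0.0836, range over alternatives 6.29e-09 to 0.0836). RGS16 was the most abundant RGS gene of corpuscles by mean FPKM (44.3), but its share of the RGS total ran from 1.02% to 71.1%.

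RGS3, which also acts on Gi/o and Gq alphas, varied less between corpuscle libraries. It stood at 91.9, 179, 118, 190 and 80.9 CPM in corpuscles and at 27.3 to 42.3 CPM in skin. The log2 fold change was 1.98 ± 0.27 (adjusted p 1.99e-05), with no overlap and with 23 FPKM in corpuscles. RGS8, known from Purkinje cells of the rodent cerebellum, rose from 0.378 ± 0.199 to 7.25 ± 3.32 CPM (log2 4.23 ± 0.50, adjusted p 6.27e-06), at 1.13 FPKM in corpuscles, which is under the background level. RGS1, known from lymphocytes, was at 1.71 against 0.827 CPM and missed the threshold (log2 1.03 ± 0.43, adjusted p 0.0515), which it passed without corpuscle 2 or corpuscle 3. With all libraries it passed by DESeq2 (adjusted p 0.0454, range over alternatives 0.0285 to 0.441).

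RGS5, a marker gene of pericytes in mammals, fell in corpuscles. It stood at 25.4, 3.58, 21.6, 41.7 and 19.6 CPM in corpuscles and at 42.1 to 69.5 CPM in skin, with a median of 66.9. Corpuscle 4 reached almost to skin 4, which was the lowest skin library. The log2 fold change was -1.48 ± 0.44 (adjusted p 0.009). Pericyte and smooth muscle markers summed to 186 to 457 CPM in corpuscles against 856 to 1256 CPM in skin, and their part in the RGS5 result was not tested. RGS4, a regulator common in neurons, was at 24.9 CPM in corpuscle 5 and 0.355 to 3.33 CPM in the other 4, against 14.6 to 23.8 CPM in skin. RGS4 did not pass edgeR's test with all libraries (log2 -1.61 ± 0.77, adjusted p 0.0858). It was called lower by limma-voom with all libraries (log2 -2.99, adjusted p 0.00178) and by edgeR with the replicate block (log2 -3.07, adjusted p 0.00344). Without corpuscle 5 it was also called lower (log2 -3.50, adjusted p 9.54e-05, range over alternatives 4.15e-05 to 0.867). RGS21, known from taste cells of mice, was too low to test, with 124 counts in corpuscles and 8 in skin.

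RGS proteins of the R7 class are stabilised by GNB5 and act on Gi/o alphas, above all in neurons and retina. RGS7 stood at 12, 18.2, 11.8, 43.1 and 21 CPM in corpuscles and at 0.331 to 0.716 CPM in skin, with a median of 0.477. No corpuscle library came near the skin range, and corpuscle 4 was highest. The log2 fold change was 5.40 ± 0.47 (adjusted p 4.81e-07). Its level per kilobase was low, 0.675 FPKM in corpuscles, on a gene of 30290 bp in the authors' values. RGS6, its close relative, rose from 0.559 ± 0.323 to 6.98 ± 3.49 CPM (log2 3.63 ± 0.55, adjusted p 5.55e-05) and was also highest in corpuscle 4, at 12.1 CPM. Genes of unrelated organs summed to 330 CPM in corpuscle 4 and to 172 to 252 CPM in the other corpuscle libraries, and their part in these low-level results was not tested. Without corpuscle 4 the log2 fold changes of RGS6 and RGS7 kept their calls.

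RGS11, an R7 member of ON bipolar cells in the mammalian retina, stood at 21.6, 17.8, 29.2, 11.7 and 32 CPM in corpuscles and at 5.3 to 20.5 CPM in skin. Skin 3 alone reached into the corpuscle range, and the other 5 skin libraries ended at 7.48 CPM. RGS11 rose by 1.32 ± 0.41 on the log2 scale (adjusted p 0.0132) and, at 12.4 FPKM, was the one R7 gene above the background level. With the length correction its call was lost (log2 0.90, adjusted p 0.0727, range over alternatives 0.00123 to 0.203). RGS9, which ends the light response in photoreceptors, was at 1.69 to 7.93 CPM in corpuscles against 2.5 to 4.31 CPM in skin and did not pass the test (log2 0.18 ± 0.40, adjusted p 0.718), and its sign changed without corpuscle 4. Of the membrane receptors known to bind R7 proteins, GPR158 rose from 4.32 ± 1.15 to 22.2 ± 8.92 CPM (log2 2.36 ± 0.36, adjusted p 5.82e-05). GPR179, its relative in ON bipolar cells, was named after its values were seen and rose from 2.21 ± 0.822 to 9.6 ± 5.83 CPM (log2 2.11 ± 0.45, adjusted p 0.000915). Both lay under the background level, at 2.61 and 1.27 FPKM in corpuscles.

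Genes of the R12 class were lower in corpuscles or did not pass. RGS10, a small regulator abundant in leukocytes and microglia of mammals, stood at 16, 13, 7.7, 3.33 and 16.5 CPM in corpuscles and at 70 to 108 CPM in skin, with a median of 87.5. The ranges were far apart. RGS10 fell by 2.93 on the log2 scale (SE 0.38, adjusted p 1.32e-05), and it was the most abundant RGS gene of skin, at 23 FPKM. Leukocyte markers summed to 46.4 to 115 CPM in corpuscles against 57.5 to 98.7 CPM in skin, overlapping ranges, with 3 of 9 higher and 1 lower. The part of leukocytes in the RGS10 result was not tested. RGS12, a large member that also binds Ras proteins, was at 9.19 to 20.9 CPM in corpuscles against 28.7 to 33.5 CPM in skin (log2 -1.13 ± 0.29, adjusted p 0.00403), under the background level in both. RGS14, its relative, was at 4.15 CPM in corpuscles against 5.31 CPM in skin (log2 -0.36 ± 0.43, adjusted p 0.496).

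The RZ class, which favours Gz among its targets, held no call, but the ratio of RGS17 to RGS19 differed between tissues, as given below. RGS17 was at 4.13 and 1.78 CPM (log2 1.20 ± 0.50, adjusted p 0.0533), and a further locus that RefSeq also names RGS17 was at 0.534 and 0.281 CPM, so its reads may be split. RGS19 was at 2.44 and 4.43 CPM (log2 -0.86 ± 0.36, adjusted p 0.0513), with every corpuscle library below every skin library. Both lay so close to the threshold that leaving out single libraries or changing the method changed the outcome. RGS17 passed without corpuscle 1, 2 or 5 or skin 2, and RGS19 without corpuscle 4 or 5. With all libraries both passed by DESeq2 (adjusted p 0.0261 and 0.0262) and with the length correction (adjusted p 0.0292 and 0.00776). The range over alternatives was 0.0248 to 0.327 for RGS17 and 0.00776 to 0.648 for RGS19. RGS20, too low to test, had 174 counts in corpuscles and 11 in skin. RGS22, known from testis in mammals, was at 17.3 CPM in corpuscle 4 and 3.55 to 5.31 CPM in the other corpuscle libraries, against 5.37 to 12.2 CPM in skin (log2 -0.58 ± 0.46, adjusted p 0.295). Without corpuscle 4 it was called lower (log2 -1.28, adjusted p 0.00463, range over alternatives 0.00308 to 0.919).

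**Figure D4:**
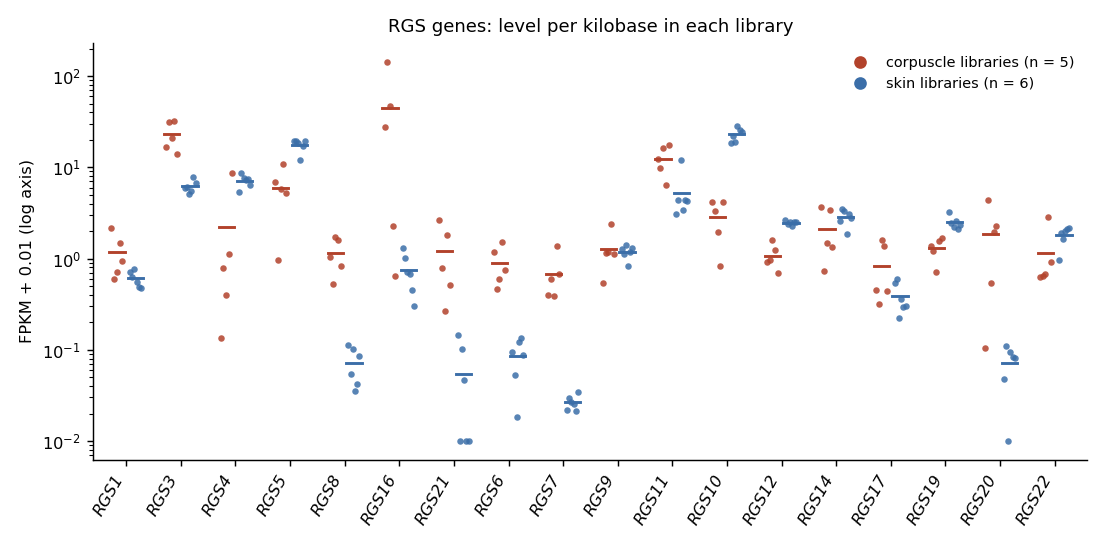
Level of each RGS gene in every library by class, as the authors' deposited FPKM plus 0.01 on a log axis, with 1 point per library (5 corpuscle, 6 skin) and a short line at each group's mean. RGS3, RGS6, RGS7, RGS8 and RGS21, which was too low to test, lie higher in corpuscles without overlap. RGS5, RGS10, RGS12 and RGS19 lie lower without overlap, RGS5 by little. RGS16 spreads widely over corpuscles.

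Ratios of related genes within a library do not depend on how libraries were scaled. Of 22 pairs listed, 16 had both genes in the table, and 10 of them differed between tissues after Benjamini-Hochberg adjustment over the 16, by two-sided exact permutation tests over the 462 ways to assign the libraries, whose smallest p is 0.00433. Of the 10, GNAZ over GNAI2, GNB4 over GNB1 and GNG2 over GNG12 lost their call in most repeats that left out 1 library, of either tissue. GNAI3 over GNAI2 had a mean log2 ratio of -2.24 ± 1.1 in corpuscles and 1.08 ± 0.12 in skin (exact permutation adjusted p 0.0115). The order of these alphas was thus opposite in the tissues, in every library. RGS7 over RGS9 was 2.33 ± 0.44 in corpuscles and -2.83 ± 0.47 in skin (exact permutation adjusted p 0.0115). That ratio is of raw counts and RGS7 is the longer gene, and per kilobase RGS7 lay below RGS9 in every library of both tissues. GNAL over GNAS, the Gs pair, was -4.22 ± 1.13 against -2.34 ± 0.23 (exact permutation adjusted p 0.0198). RGS10 over RGS14 was 1.47 ± 1.62 against 4.03 ± 0.5 (exact permutation adjusted p 0.0115). RGS17 over RGS19 was 0.49 ± 1.36 against -1.38 ± 0.43 (exact permutation adjusted p 0.0115). Its lowest corpuscle value, -0.57, was just above its highest skin value, -0.66. GNAO1 over GNAI2 was -1.14 ± 0.82 against -1.66 ± 0.22, a difference of 0.53 that did not pass (exact permutation adjusted p 0.173).

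Genes that act before or after G proteins were read from 8 lists of 113 genes, of which 94 were in the table and 92 were tested. Of these 20 rose, 26 fell and 46 did not pass, with a median log2 fold change of -0.19, beside 56.4% called and a median of 0.18 among all genes. In corpuscles 12 of those 20 did not exceed the background level. Among the 12 were ADCY1, ADCY8, PDE11A, PLCB2, SAG and KCNJ6, described next, and GPR158 and GPR179. Among 8 adenylyl cyclases, the enzymes that make cAMP, 2 rose and 3 fell. ADCY1, which calcium and calmodulin stimulate, rose from 19.5 ± 4.26 to 79.1 ± 13.4 CPM (log2 2.02 ± 0.25, adjusted p 1.05e-05), and ADCY8, also stimulated by calcium, rose by 1.96 ± 0.47 (adjusted p 0.00252) with overlap between the tissues. ADCY9 fell from 184 ± 24.9 to 57.7 ± 22.1 CPM (log2 -1.67 ± 0.27), and ADCY2, which beta-gamma stimulates, had a log2 fold change of -2.06 ± 0.36.

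Among 11 genes of protein kinase A and other cAMP effectors 1 rose and 7 fell. The one that rose, PKIG, encodes an inhibitor of protein kinase A and went from 32.6 ± 6.16 to 294 ± 85.6 CPM (log2 3.17 ± 0.23, adjusted p 1.28e-07). PRKACB, a catalytic subunit of the kinase, fell from 169 ± 12.9 to 59.6 ± 28.3 CPM (log2 -1.5 ± 0.27). RAPGEF3, an exchange factor that cAMP opens, had a log2 fold change of -2.24 ± 0.36. Of 16 phosphodiesterases, which break down cyclic nucleotides, 3 rose and 5 fell, and without corpuscle 2 the number that rose was 5. PDE11A rose from 2.48 ± 1.94 to 26.3 ± 18.7 CPM (log2 3.40 ± 0.60), and PDE5A, a cGMP enzyme of vascular smooth muscle, fell from 131 ± 27.7 to 24.2 ± 6.28 CPM (log2 -2.43 ± 0.25), beside the lower smooth muscle markers given above, whose part was not tested.

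In the phospholipase C beta arm 3 of 14 genes rose and 5 fell. Those that rose numbered 1 without corpuscle 2 and 0 with a replicate block. The IP3 receptors ITPR2 and ITPR3, which release calcium from stores, had log2 fold changes of -1.63 ± 0.28 and -1.59 ± 0.34, and PLCB2, a phospholipase of taste cells and leukocytes in mammals, rose by 1.45 ± 0.48 with overlap between the tissues, a call lost with the replicate block. Among 8 receptor kinases and arrestins 1 rose and 1 fell. The kinase GRK5 fell from 36 ± 4.16 to 10.6 ± 6.86 CPM (log2 -1.76 ± 0.39), and 2 genes were lower without corpuscle 4. The visual arrestin SAG was called higher (log2 1.38 ± 0.55, adjusted p 0.0441) with overlap between the tissues. It is a gene of photoreceptors, whose markers were also higher in corpuscles, and their part was not tested. The list had 0 genes higher without corpuscle 3 or 4, without skin 1, 2, 4, 5 or 6, and by limma-voom, and 2 without corpuscle 1 or 5.

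Of 21 chaperones and other regulators of G proteins 4 rose and 4 fell, and those that fell numbered 7 without corpuscle 4 and 9 by limma-voom. RASD2, a Ras-like protein that dampens Gi/o signals, rose from 23.9 ± 5.37 to 123 ± 84.5 CPM (log2 2.36 ± 0.38). CCDC88C, which can activate Gi alphas without a receptor, fell from 56.5 ± 5.65 to 8.92 ± 4.86 CPM (log2 -2.67 ± 0.39), and GPSM1, which binds Gi alpha in its GDP form, had a log2 fold change of -2.16 ± 0.35. Of 8 beta-gamma effectors 3 rose and 1 fell, or 2 without corpuscle 2 or 4. KCNJ6, a potassium channel that beta-gamma opens, was at 32.7 ± 21.5 CPM in corpuscles against 0.052 CPM in skin. KCNJ5, a channel subunit of the same kind, rose from 2.18 ± 0.803 to 46.3 ± 39.7 CPM (log2 4.41 ± 0.59). PIK3R5, a subunit of the phosphoinositide kinase that beta-gamma activates in leukocytes, fell (log2 -1.48 ± 0.44) with overlap between the tissues. It lay under the background level in both, at 0.861 FPKM in corpuscles and 2.54 FPKM in skin. Its call was lost against a fold of 2 and within corpuscles 4 and 5 and skin 5 and 6.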

How the data were processed

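RNA was sequenced from 5 libraries of corpuscles and 6 of bill skin, grouped by the tissue label. Read counts per gene, whole and not normalized, were deposited by the authors. The submitters' processing notes name STAR 2.7.7a, Trimmomatic 0.39, Subread 2.0.1 with featureCounts, and edgeR 3.38.4. The genome build, the annotation and whether strand was used are not given in the sources used here. The authors also deposited FPKM and a signal per gene, its normalized count, and the ratio of these values gave each gene's length. Their deposited table also holds a log2 fold change, a p-value and a false discovery rate per gene, and of the 41 genes it calls 28, with all 25 called here among them in the same direction.

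The counts went into the robust quasi-likelihood test of edgeR 4.0.16 (R 4.3.3), with TMM factors, the filterByExpr filter and a threshold of 0.05. Ratios of pairs, with 0.5 added to each count, were compared by exact permutation, computed with numpy 2.4.6. Alternatives used DESeq2 1.42.0, limma 3.58.1 (voom), other scalings and filters, a replicate block, thinning, left-out libraries and splits of them. A length correction was added after seeing the data. A floor of 3 counts is worth 0.52 CPM in corpuscle 4, the smallest library, and 0.143 CPM in skin 2, and covers counting error only. No pair of replicates agreed within sampling noise (lowest chi-square per degree of freedom 11.6). Counts were simulated over 14638 genes, of which 100 were changed 4-fold, 100 were changed 2-fold and the rest not at all. The fit recovered 58 of the 100 changed 4-fold and 8 of the 100 changed 2-fold, with 4 false calls among 70. In the data 56.4% of genes were called, so these rates do not carry over directly to the comparison.

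The members follow from a rule on names, but that rule and the lists were chosen with earlier results of these data known. By rule, library values are given for genes changed over 4-fold at 10 CPM or more. They are also given for the most abundant gene of each family by FPKM in each tissue. The rule further asked for members of named pairs, but GNAZ, GNG12, RGS9, RGS14, RGS17 and RGS19 are given by means or ranges only. GNB4, RGS3, RGS4, RGS5 and RGS11 were added to the genes with library values after their values were seen. The other genes are given by ranges, means or count totals. From the pathway lists the rule names called genes at 5 CPM or more with the largest change, and not all of them are printed; 1 of the 8 lists enters the totals only, and its own result is not reported here. Of the 41 names, 39 were found in RefSeq's gene table for the duck, which was used for names and neighbours only. GNAI1, GNAQ, GNB2 and RGS2 were not analysed here. Figures were drawn with matplotlib 3.10.9.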

Additional observations from a re-analysis of the deposited data

Results flagged for a closer look

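In 6 of 90 groups of values examined, the value of 1 library lay apart from the rest of its tissue by Dixon's test, and chance flags about 1 group in 20. Corpuscle 5 had 21 CPM of GNAL, against 2.35 to 7.45 CPM in the other corpuscle libraries. It also had 24.9 CPM of RGS4, against 0.355 to 3.33 CPM. Corpuscle 4 had 17.3 CPM of RGS22, against 3.55 to 5.31 CPM. Skin 3 had 31.6 CPM of GNAL, against 22.3 to 25.4 CPM in the other skin libraries, and 20.5 CPM of RGS11, against 5.3 to 7.48 CPM. Skin 4 had 42.1 CPM of RGS5, against 60.3 to 69.5 CPM.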

How the results depend on the processing

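Of the 25 calls, 9 (GNAO1, GNAT2, GNB3, GNG10, GNG13, RGS3, RGS6, RGS7 and RGS8) were made in the same direction under every alternative that tested them. For GNAO1, GNG10, GNG13, RGS3 and RGS7 these were all 25, for GNAT2, RGS6 and RGS8 24 (the filter at 5 CPM in 5 libraries removed them) and for GNB3 23 (thinning removed it too). In corpuscles GNAT2, GNB3, RGS6, RGS7 and RGS8 lay under the background level, at 0.675 to 1.35 FPKM. Of 31 tested genes of unrelated organs 24 were called higher too. RLE factors, DESeq2, no filter on low counts and leaving out the 20 most abundant genes kept all 25. Leaving out 1 library gave 18 to 20 members higher and 6 to 10 lower, with 51.9% to 61.5% of all genes called. On the pathway lists it gave 18 to 23 higher and 22 to 31 lower. The Gi/o share then ran from 80.7% to 85.6% in corpuscles and 65.0% to 65.6% in skin. Without corpuscles 4 and 5, members called lower numbered 11 of 38, beside 4091 of all 14728 genes tested. They also numbered 11 of 38 within corpuscles 1 to 3 and skin 1 to 4, beside 3462 of 14663 genes. Within corpuscles 4 and 5 and skin 5 and 6, where 34.3% of all genes were called, 11 members were higher and 2 lower. Of the pathway genes 9 were lower there. Among 14 calls lost in this smaller fit were GNAI2 (log2 2.15, adjusted p 0.136, over alternatives 1.21e-08 to 0.136) and RGS10 (-3.08, adjusted p 0.064, over alternatives 1.82e-14 to 0.064). Against a fold of 2, where 31.2% of all genes were called, 12 of 38 members were higher and 1 lower. GNAI3, for one, was lost. Of the pathway genes 12 were higher and 11 lower against that fold. Same-numbered libraries are not paired by the labels, and 1 of 5 correlations of their deviations passed 0.1. A replicate block called 48.3% of all genes and gave 16 members higher and 7 lower, with 22 of 25 calls kept. Upper-quartile factors moved the median log2 fold change of all genes from 0.18 to 0.33. Signs turned for uncalled genes: GNAS (-0.03, no filter), GNB1 (-0.04 by limma-voom, -0.08 with the replicate block, -0.49 within corpuscles 4 and 5 and skin 5 and 6, and -0.06 to 0.34 leaving out 1 library) and RGS9 (-0.22 within corpuscles 1 to 3 and skin 1 to 4, -0.25 without corpuscles 4 and 5, and -0.18 to 0.36 leaving out 1 library). Among called genes GNGT2 turned (-0.60 within corpuscles 4 and 5 and skin 5 and 6). The causes were not tested. Counts in corpuscles, 5766279 at least, limit what can be read of genes near the floor.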

Other observations

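Loci that the count table lists without a symbol and RefSeq names as partners or relatives of RGS genes were read as well. RGS18, known from platelets in mammals, stood at 5.6 ± 6.86 CPM in corpuscles (SD, n = 5) against 2.86 ± 0.859 CPM in skin (n = 6) (edgeR log2 0.97 ± 0.63, adjusted p 0.202). RGS9BP, the membrane anchor of RGS9 in photoreceptors, was at 10.6 ± 12.1 and 25.1 ± 4.1 CPM (log2 -1.24 ± 0.57, adjusted p 0.0751). RGS7BP, a membrane anchor of R7 proteins, was at 7.29 ± 8.77 and 9.64 ± 2.23 CPM (log2 -0.42 ± 0.60, adjusted p 0.575).

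Several of the 41 genes lie side by side in the RefSeq order of protein-coding genes, with 0 genes between GNAI2 and GNAT1, GNAI3 and GNAT2, GNA13 and RGS9, and RGS1 and RGS21. Neighbours did not move together in the first pairs. GNAI2 had a log2 fold change of 2.12 beside -0.82 for GNAT1, and GNAI3 of -1.30 beside 2.53 for GNAT2. Since the use of strand was not given, reads where such neighbours overlap could not be assigned with certainty.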
